A study of Mus musculus with 6 samples.

Results

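The immediate early activity genes are those that neurons transcribe within minutes of strong synaptic input, without waiting for new protein synthesis. The 10 genes considered here were *Fos*, *Fosb*, *Junb*, *Egr1*, *Egr2*, *Egr3*, *Egr4*, *Arc*, *Npas4* and *Nr4a1*. They were chosen by name, and all 10 had a row of their own among the 13886 protein-coding genes measured. The libraries were made from RNA pulled down with HA-tagged ribosomes (IP samples) from micropunches of the medial amygdala (MeA) of KissRibo females, which are Kiss1Cre+/Rpl22HA+/+ mice. The tag is made where *Kiss1*-driven Cre has acted. Every mouse lost its ovaries at 8 weeks, was given estradiol (E2) for 4 days to drive the Cre, and was left without E2 for 7 days. They then either stayed without E2 (OVX) or carried an E2 implant for 5 days (OVX+E2). Each group had 3 libraries, each made from the pooled tissue of 4 mice, so errors between libraries are errors between pools. Because the ovariectomy and the E2 pre-treatment were shared by both groups, the comparison is of renewed E2 with continued absence of E2, and intact females were not analysed here.

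Most of these genes encode transcription factors. Calcium entering an active neuron switches on kinases that act on CREB and on the serum response factor SRF at the promoters, and the resulting mRNAs are short-lived. *Fos*, *Fosb* and *Junb* encode subunits of the AP-1 factor, which work as Fos-Jun pairs. *Egr1* to *Egr4* encode zinc finger factors, *Npas4* encodes a factor induced by calcium influx into neurons, and *Nr4a1* encodes an orphan nuclear receptor. *Arc* is the exception, since its protein works at synapses, where it promotes removal of AMPA receptors. In the amygdala, as elsewhere in the brain, *Fos* and *Arc* are standard markers of recently active neurons.

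None of the 10 genes passed the threshold for a difference between E2 and OVX. The range among single libraries of a treatment was wider than the difference between the treatment means, as such ranges tend to be. The mean log2 level with E2 was below that of OVX for 9 of the 10 genes, by 0.09 to 0.42, and above it only for *Npas4*, by 0.32. For all 10 genes, however, the OVX and E2 libraries overlapped. The same library was the highest OVX library for every gene (replicate 2), and the same was true of E2 (replicate 3).

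The promoters are shown first because the start sites of these genes are known for a small set of response elements. Sequences were taken from RefSeq (GRCm38.p6) and were matched by symbol for 7 of the 10 genes, namely *Fos*, *Fosb*, *Junb*, *Egr2*, *Egr4*, *Npas4* and *Nr4a1*, while *Egr1*, *Egr3* and *Arc* had no match in the promoter table used. The 7 genes had 11 start site windows, each from 250 bases before to 50 bases after a start, and *Egr2* had 5 of them. The 250 bases before a start are printed for *Fos*, the best-known of the set, for *Nr4a1*, which had the smallest unadjusted p, and for *Egr2*, which had the lowest level. In lower-case sequence, capitals mark the core of the cAMP response element (TGACG, or CGTCA where it lies on the other strand) and, in *Egr2*, also the CArG box that SRF is known to bind.

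*Fos*, chr12:85473640-85473889, plus strand: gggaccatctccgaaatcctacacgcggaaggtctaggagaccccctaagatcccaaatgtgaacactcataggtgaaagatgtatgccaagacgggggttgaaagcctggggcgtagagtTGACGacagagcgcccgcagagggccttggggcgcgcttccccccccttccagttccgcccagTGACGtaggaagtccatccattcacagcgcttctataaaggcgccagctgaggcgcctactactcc
*Nr4a1*, chr15:101266596-101266845, plus strand: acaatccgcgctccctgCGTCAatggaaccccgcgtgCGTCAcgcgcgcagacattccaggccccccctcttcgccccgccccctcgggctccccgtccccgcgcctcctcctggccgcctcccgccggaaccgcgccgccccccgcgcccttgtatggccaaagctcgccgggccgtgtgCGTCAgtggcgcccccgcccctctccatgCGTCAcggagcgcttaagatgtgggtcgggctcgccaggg
*Egr2*, chr10:67537619-67537868, plus strand: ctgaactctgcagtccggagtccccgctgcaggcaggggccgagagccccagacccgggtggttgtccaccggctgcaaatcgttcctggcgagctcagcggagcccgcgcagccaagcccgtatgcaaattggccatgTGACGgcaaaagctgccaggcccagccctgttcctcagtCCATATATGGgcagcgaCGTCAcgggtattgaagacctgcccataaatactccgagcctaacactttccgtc

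The *Fos* sequence ends at the base before the annotated gene. Those of *Nr4a1* and *Egr2* lie between annotated exons of longer transcripts of the same genes, and no printed base lies in a GENCODE exon of its own gene. The *Fos* stretch has the core at -129 and -66 from the start site and a TATAAA at -33. In *Nr4a1* the core occurs 4 times, at -233, -213, -69 and -40. *Egr2* has it at -111 and -55, on either side of a CArG box at -72.

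The core was present in at least 1 window of all 7 genes and in 9 of their 11 windows, several of which overlap one another in *Egr2*. It was found in 20.8% of the 32851 windows of all genes, searched on both strands and for the same length. The full palindrome TGACGTCA was in none of the 11 windows and in 1.79% of all windows, and each match to it also counts as a match to the core. The CArG box, searched strictly with only A or T between CC and GG, was found in *Egr2* alone of the 7 genes (1.63% of all windows). Variants of it and sites outside the windows were not searched, so its absence elsewhere holds only for this search. The binding site of the Egr proteins themselves, searched as GCGNGGGCG, was found in *Fosb* and *Nr4a1* (5.55% of all windows), and TATAAA in *Fos* and *Junb* (13.6%). The estrogen response element GGTCANNNTGACC was in none of the 11 windows and in 23 of all windows. These matches describe letters in a window and were not tested for binding.

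Levels are given as log2 CPM (counts scaled to a fixed library total, on a log2 scale), as the authors made them. Libraries held, after scaling, 28.1M to 34.2M reads in OVX libraries and 30.3M to 34.0M with E2, so that even *Egr2*, the lowest of the 10, stood for 78 to 222 reads in a library. Neuronal markers (*Rbfox3*, *Snap25*, *Syt1*, *Tubb3*) summed to 11.83 to 11.97 in log2 CPM. Markers of oligodendrocytes (10.61 to 11.23) and astrocytes (10.39 to 10.77) were also well above 0. Transcripts known from other cell types were thus measured beside those of *Kiss1* cells. *Kiss1* itself had 2 rows, with means of 2.70 and 0.40, and the former rose with E2 (difference 1.91, adjusted p = 0.00475 in limma). The latter was also higher with E2 but did not pass the threshold (difference 5.05, adjusted p = 0.0942 in limma), with OVX replicate 1 at -5.82. In such pooled RNA, fewer cells with a transcript and less of it per cell cannot be told apart.

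Among the AP-1 genes, *Fos* (ENSMUSG00000021250, chr12:85473890-85477273 in GRCm38) had log2 CPM of 4.41, 5.22 and 4.47 in OVX replicates 1, 2 and 3, and in E2 replicates 1, 2 and 3 of 4.18, 4.46 and 5.08. Its highest E2 library was above 2 of the 3 OVX libraries, so the groups were interleaved. The *Fos* difference, E2 minus OVX, was -0.13 on the log2 scale (SE 0.22, 95% interval -0.60 to 0.35, adjusted p = 0.935 in limma). Without OVX replicate 2 its sign turned (0.13), as it did without E2 replicate 1 (0.07).

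*Fosb* (ENSMUSG00000003545, chr7:19302696-19310051) had log2 CPM of 4.05, 4.10 and 3.73 in OVX and 3.60, 3.68 and 3.80 in E2 libraries. Overlap came from a single pair, since OVX replicate 3 was lower than E2 replicate 3. On the log2 scale the difference was -0.27 (SE 0.14, 95% interval -0.56 to 0.03, adjusted p = 0.634).

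*Junb* (ENSMUSG00000052837, chr8:84974484-84978718) encodes a Jun partner of the Fos proteins and was measured at 6.16, 6.31 and 5.98 in OVX and at 5.81, 5.90 and 6.20 in E2 libraries. E2 replicate 3 lay among the OVX values and the other E2 libraries lay below them. *Junb* differed by -0.18 log2 units (SE 0.10, 95% interval -0.40 to 0.04, adjusted p = 0.695). *Junb* shares 173 of its 2301 exonic bases with *Prdx2* on the opposite strand, and the libraries do not keep strand, so reads there could come from either gene.

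The Egr genes encode closely related factors and covered a wide range of levels. *Egr1* (ENSMUSG00000038418, chr18:34859823-34864984) was measured at 7.03, 7.31 and 7.18 in OVX and at 6.88, 7.09 and 7.16 in E2 libraries. Its log2 difference was -0.13 (SE 0.08, 95% interval -0.31 to 0.05, adjusted p = 0.729), with E2 replicates 2 and 3 above the lowest OVX library.

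*Egr2* (ENSMUSG00000037868, chr10:67535475-67542188) varied most, with log2 CPM of 2.21, 2.70 and 1.96 in OVX libraries against 2.06, 1.21 and 2.34 with E2. E2 replicate 2 was the lowest by a wide margin. The log2 difference was -0.42 (SE 0.31, 95% interval -1.08 to 0.24, adjusted p = 0.781), which was the largest of the 10 in size and also the one with the widest interval. The size rests on single libraries, since it was -0.09 without E2 replicate 2, -0.22 without OVX replicate 2 and -0.66 without E2 replicate 3.

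*Egr3* (ENSMUSG00000033730, chr14:70077203-70082614) was the steadiest of the 10, at 6.39, 6.49 and 6.48 in OVX and 6.33, 6.30 and 6.46 in E2 libraries. All 6 values lay within 0.19 of each other. On the log2 scale the difference was -0.09 (SE 0.07, 95% interval -0.24 to 0.06, adjusted p = 0.793).

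*Egr4* (ENSMUSG00000071341, chr6:85511121-85513589) was measured at 5.52, 5.58 and 5.36 in OVX and at 5.09, 5.38 and 5.72 in E2 libraries, so that its lowest and its highest value were both from E2-treated females. The log2 difference was -0.09 (SE 0.13, 95% interval -0.36 to 0.18, adjusted p = 0.908). It was 0.06 without E2 replicate 1.

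The remaining genes act outside the AP-1 and Egr families. *Arc* (ENSMUSG00000022602, chr15:74669083-74672570) had log2 CPM of 5.87, 6.18 and 5.86 in OVX libraries against 5.44, 5.52 and 6.16 with E2. E2 replicates 1 and 2 were below every OVX library, and E2 replicate 3 nearly matched the highest of them. The log2 difference was -0.26 (SE 0.15, 95% interval -0.59 to 0.06, adjusted p = 0.695). Without E2 replicate 3 it was -0.49, with an adjusted p of 0.0647, the lowest of its alternatives (0.0647 to 0.969).

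*Npas4* (ENSMUSG00000045903, chr19:4984355-4990316) was the only gene with a higher mean in E2 libraries, at 3.77, 3.80 and 2.89 in OVX and 3.64, 3.64 and 4.13 in E2. Its OVX replicate 3 was far below the other 5 libraries, and without that library the log2 difference was 0.02. With all libraries it was 0.32 (SE 0.22, 95% interval -0.16 to 0.80, adjusted p = 0.768).

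*Nr4a1* (ENSMUSG00000023034, chr15:101254269-101274795) was measured at 5.41, 5.76 and 5.24 in OVX and at 5.02, 4.82 and 5.43 in E2 libraries. It came nearest to the threshold, with a log2 difference of -0.38 (SE 0.15, 95% interval -0.70 to -0.06), which is 0.768-fold. Its unadjusted p was 0.0237 and its adjusted p was 0.482. E2 replicate 3 was above OVX replicates 1 and 3, so this gene also overlapped between the groups.

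**Figure D1:**
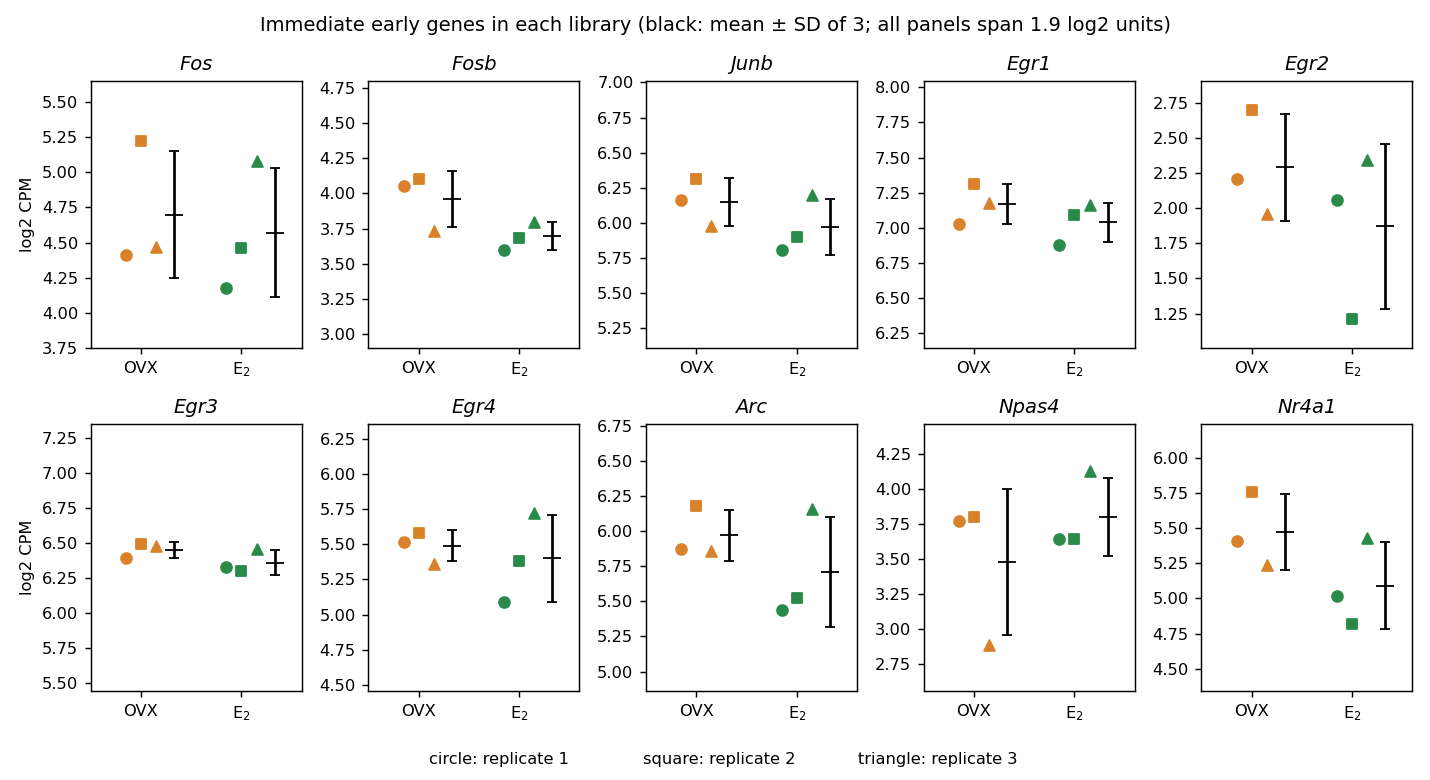
Log2 CPM of the 10 immediate early genes in each library, with OVX in orange and E2 in green, the replicate given by the marker shape, and the mean ± SD of 3 libraries in black; each panel spans the same number of log2 units. In every panel the square (replicate 2) is the highest OVX point and the triangle (replicate 3) the highest E2 point.

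At an adjusted p under 0.05, 0 of the 10 genes were called, where 40 of 13886 genes (0.288%) were called in all, 32 higher and 8 lower with E2. At an unadjusted p under 0.05 the count was 1 of 10 (*Nr4a1*), against 1188 genes or 8.56% of all. The count was 0 without the trend (1017 of all 13886 genes), which ended the *Nr4a1* result. It was also 0 without OVX replicate 2 (1355 of all genes), E2 replicate 1 (838) or E2 replicate 2 (920). It was 2 without OVX replicate 1 (886 of all genes), 3 without OVX replicate 3 (1260) and 4 without E2 replicate 3 (1229). None of the 10 had all E2 libraries below all OVX libraries, an arrangement shown by 6.82% of all genes, and none had all E2 libraries above, as 6.85% of all genes did. An exact permutation test of 3 against 3 libraries could not have given a p below 0.1. The 9 of 10 genes with a negative difference compare with 48.9% of all genes, and the median difference of the 10 genes was -0.16 where that of all genes was 0.00. That median was -0.08 without OVX replicate 2, -0.09 without E2 replicate 1, -0.25 without OVX replicate 3 and -0.31 without E2 replicate 3. These genes moved together between libraries, as described below, so their signs are not independent of each other. With the replicates available, no difference could be told from 0 at the adjusted threshold. Differences within the 95% intervals were not excluded, and the intervals reached down to -1.08 for *Egr2* but only to -0.24 for *Egr3*. That of *Nr4a1* (-0.70 to -0.06), which is not adjusted for the number of genes, did not reach 0.

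**Figure D2:**
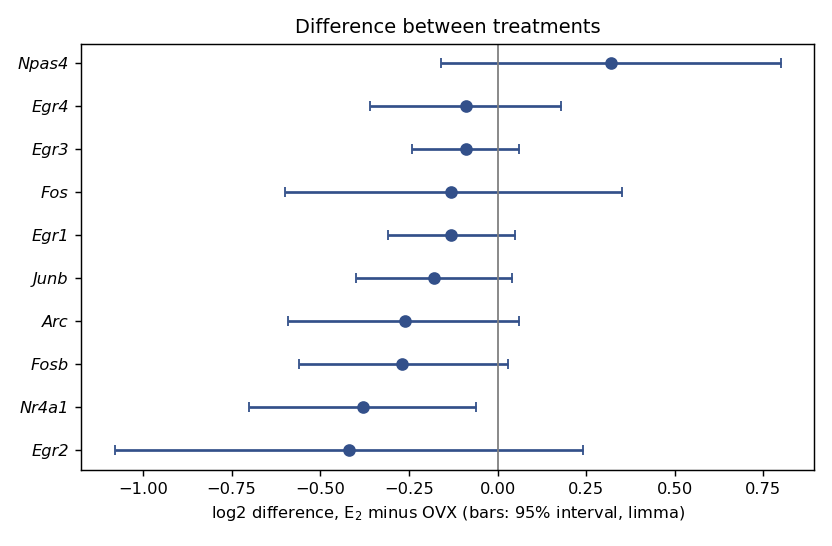
Log2 difference, E2 minus OVX, of each gene (points) with its 95% interval from limma over 3 libraries per group (bars), on a linear axis with a line at 0. The interval of *Nr4a1*, -0.70 to -0.06, is the only interval of the 10 that does not reach 0, and that interval is not adjusted for the number of genes.

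The spread within a treatment was wide and shared. Relative to each gene's own mean of 6 libraries, the 10 genes were on average 0.31 ± 0.19 higher in OVX replicate 2 and 0.21 ± 0.17 higher in E2 replicate 3 (SD over the 10 genes). They were 0.23 ± 0.15 and 0.23 ± 0.26 lower in E2 replicates 1 and 2 (mean centred values of -0.23 and -0.23), and stood at 0.05 ± 0.13 and -0.12 ± 0.24 in OVX replicates 1 and 3. OVX replicate 2 was above the mean for 10 of 10 genes and E2 replicate 3 for 9 of 10, whereas E2 replicates 1 and 2 were above it for 0 of 10.

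For all 10 genes the highest OVX library was replicate 2 and the highest E2 library was replicate 3. Either library taken alone was the highest of its group for 33.1% and 32.1% of all genes, and both at the same time for 11.9%. The genes are not independent observations, as they share the libraries and are known to be induced together.

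**Figure D3:**
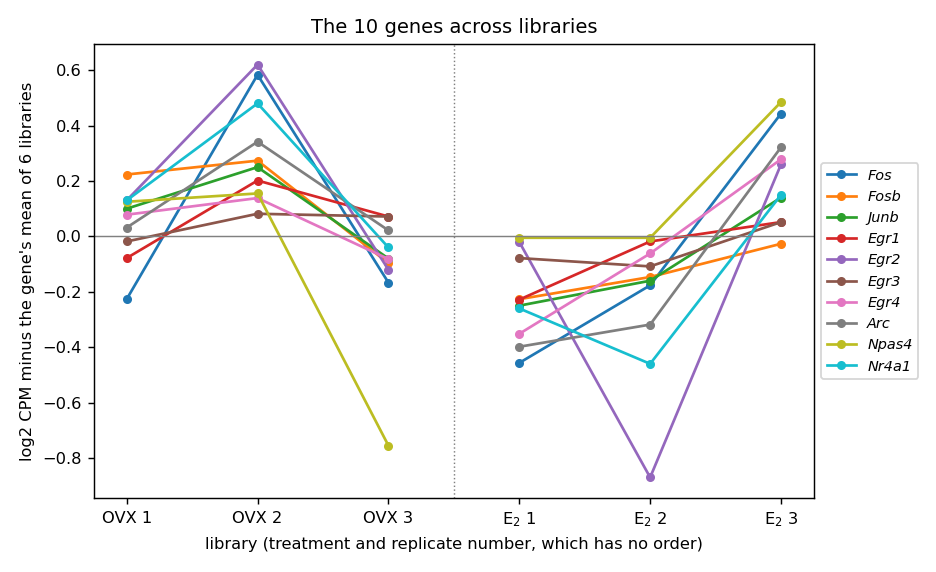
Log2 CPM of each gene minus its own mean of 6 libraries (vertical axis), for each library (horizontal axis), with 1 colour per gene and lines that only join points of the same gene within a treatment. The 10 lines rise at OVX replicate 2 and at E2 replicate 3, with means of 0.31 and 0.21 over the genes.

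The step within a treatment was steepest for *Fos* and *Egr2*. *Fos* was 0.78 higher in OVX replicate 2 than in the mean of the other OVX libraries, and 0.76 higher in E2 replicate 3 than in the mean of the other E2 libraries. For *Egr2* these within-group steps were 0.62 and 0.70, and for *Arc*, whose step was smaller among OVX than among E2 libraries, 0.31 and 0.68. *Nr4a1* showed 0.44 and 0.51 and *Npas4* 0.47 and 0.49. *Egr1* (0.21 and 0.17), *Fosb* (0.21 and 0.16) and *Egr3* (0.05 and 0.15) were the flattest, and *Junb* (0.25 and 0.34) and *Egr4* (0.13 and 0.48) lay between.

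For 10 of 10 genes the range among libraries of a treatment, averaged over the treatments, was wider than the difference between the treatment means. A range of single libraries tends to exceed a difference of means even without an effect. The share of all genes with the wider range was not computed. The median range was 0.35 among OVX and 0.55 among E2 libraries, while the median size of the treatment difference was 0.22. Pooled SDs within groups ran from 0.07 for *Egr3* and 0.14 for *Egr1* to 0.46 for *Fos* and 0.49 for *Egr2*. Among the 500 genes of most similar mean level, *Fos* stood at percentile 99.4 for this SD, *Arc* and *Nr4a1* at 98.8, *Npas4* at 97.8 and *Egr4* at 97.0. In all, 8 of the 10 genes were at percentile 91.6 or higher for spread at their level, and *Fosb* (46.4) and *Egr3* (44.0) were near the middle.

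**Figure D4:**
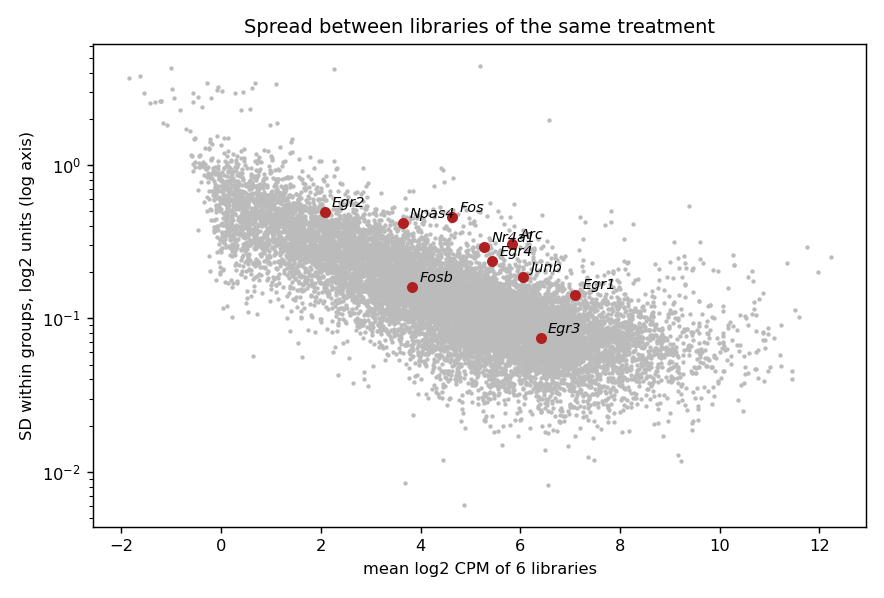
SD of the log2 CPM within groups (log axis) against the mean log2 CPM of 6 libraries, with all 13886 genes in grey and the 10 immediate early genes in red. *Fos*, *Npas4*, *Nr4a1*, *Arc* and *Egr4* lie near the upper edge of the cloud at their level (percentiles 97.0 to 99.4), and *Egr3* and *Fosb* lie within it.

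The shared movement was also visible from gene to gene. Over the 45 pairs of the 10 genes, Pearson correlations of their deviations from the group means were above 0 in all 45, with a median of 0.69 and a range from 0.15 (*Fosb* with *Egr3*) to 0.98. They rest on 6 libraries, which the genes share, and are given as a description. The same correlations for pairs of other genes were not computed. With the average profile of the set, to which each gene itself contributes, the highest correlations were those of *Junb* (0.98), *Arc* (0.97), *Nr4a1* (0.94) and *Fos* (0.91), and the lowest was that of *Npas4* (0.43).

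Markers of other cell types moved with these libraries in part. Endothelial and mural markers (6 of 6 measured) summed to 7.26, 8.02 and 7.07 log2 CPM in OVX replicates 1, 2 and 3 and to 7.66, 7.29 and 7.71 in E2. Astrocyte markers summed to 10.39, 10.75 and 10.48 in OVX and to 10.74, 10.50 and 10.77 in E2, and microglial markers to 6.77, 7.13 and 6.86 and to 6.94, 6.75 and 6.97. All 3 sums were highest in the libraries where the immediate early genes were highest, but unlike the immediate early genes they were as high or nearly as high in E2 replicate 1 as in E2 replicate 3. The single markers were divided among E2 libraries. *Slc1a2*, *Slc1a3*, *Csf1r*, *Tmem119*, *Rgs5*, *Kdr* and *Pdgfrb* were highest in replicate 3. *Gfap* (8.46 against 7.48 in replicate 3), *Aqp4*, *Aldh1l1*, *Gja1*, *Cx3cr1*, *P2ry12*, *C1qa*, *C1qb*, *Pecam1*, *Flt1* and *Cldn5* were highest in replicate 1. Oligodendrocyte markers summed to 10.76, 11.10 and 10.61 in OVX and to 11.23, 10.90 and 10.74 in E2, and were thus highest in OVX replicate 2 but lowest in E2 replicate 3. The sum of the neuronal markers differed by at most 0.14 between any libraries, though single markers varied more (*Tubb3* from 9.07 to 9.35). The part of all these markers in the result was not tested.

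Forebrain excitatory neuron markers (*Slc17a7*, *Neurod2*, *Neurod6*, *Emx1* and *Tbr1*) summed to 10.14, 9.89 and 9.77 in OVX and to 9.50, 9.37 and 9.76 in E2 libraries. All 5 had lower means with E2 and 0 of 5 passed the threshold. Among E2 libraries this sum was highest in replicate 3, like the immediate early genes, and among OVX libraries in replicate 1, unlike them. Of the single markers only *Tbr1* departed from the sum, being highest in E2 replicate 2 (6.19) and in OVX replicate 3 (6.26). The sum of the MeA *Kiss1* cell markers (*Kiss1*, *Cck*, *Cartpt*, *Esr1*) ran opposite to the immediate early genes. It was lowest of its group in OVX replicate 2 (9.18 against 9.26 and 9.42) and in E2 replicate 3 (9.34 against 9.55 and 9.63). *Cck*, *Cartpt* and *Esr1* were each lowest there too. *Kiss1* was so only among E2 libraries. In OVX replicates 1, 2 and 3 it was at 2.29, 1.82 and 1.13, and its second row at -5.82, -0.65 and 0.10. The part of these markers was likewise not tested.

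Between genes, levels were compared per kilobase of the longest annotated transcript. On this scale the mean log2 CPM per kb was 5.20 for *Junb*, 4.94 for *Egr1*, 4.43 for *Egr3*, 4.34 for *Egr4*, 4.23 for *Arc*, 3.93 for *Nr4a1* and 3.56 for *Fos*. *Fosb* (1.91), *Npas4* (1.72) and *Egr2* (0.51) formed a lower tier. *Fos* exceeded *Fosb* by 1.65 ± 0.34 (SD over 6 libraries) and *Npas4* exceeded *Egr2* by 1.21 ± 0.54, in 6 of 6 libraries each.

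Neighbours that could not be ranked beyond their spread were *Egr3* and *Egr4* (0.09 ± 0.18, the former higher in 4 of 6 libraries), *Egr4* and *Arc* (0.11 ± 0.16, in 5 of 6) and *Fosb* and *Npas4* (0.19 ± 0.40, in 4 of 6). The other neighbours kept their order in 6 of 6 libraries, with *Junb* above *Egr1* by 0.26 ± 0.13, *Egr1* above *Egr3* by 0.51 ± 0.10, *Arc* above *Nr4a1* by 0.30 ± 0.14 and *Nr4a1* above *Fos* by 0.37 ± 0.27. With the summed exon length in place of the longest transcript, 6 of the 10 places changed, and *Egr1* (4.94) stood above *Junb* (4.86).

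Further genes of the same programme were read from 4 lists. Of 36 other rapid response genes, 33 were measured and *Fosl1*, *Atf3* and *Maff* were not listed. None was called, 2 were higher and 5 lower at an unadjusted p under 0.05 (4.21% and 4.34% of all genes), and their median difference was -0.04. The most abundant were *Plk2*, a kinase of synaptic downscaling (-0.13 ± 0.06, SE), *Per1*, a clock gene (-0.04 ± 0.07), and *Jun*, the classical partner of Fos. *Jun* was measured at 6.18, 6.14 and 6.13 in OVX and at 5.72, 5.80 and 6.11 in E2 libraries, with the groups just apart (difference -0.27, adjusted p = 0.388). The smallest p was that of *Fosl2*, a later-acting Fos relative, which ran opposite to most of the set, at 4.36, 4.51 and 4.44 in OVX and 4.93, 4.65 and 5.07 in E2 (difference 0.45, adjusted p = 0.195).

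The library pattern was also read in this list. OVX replicate 2 and E2 replicate 3 were singled out because the 10 genes were highest there. The steps of the 10 genes are thus positive by that choice, and those of other lists are not. Of the 33 genes, 19 were highest in OVX replicate 2 within their group, 17 were highest in E2 replicate 3, and 8 (24.2%) were both. The median steps of these libraries over the others of their group were 0.11 and 0.15, where those of the 10 genes were 0.28 and 0.49. Chosen after their values were seen, *Btg2*, an antiproliferative gene, stepped by 0.97 in OVX replicate 2 and *Cyr61*, a matrix-associated growth regulator, by 0.77, while *Zfp36*, which encodes a factor that destabilizes mRNA, stepped by 1.31 in OVX replicate 2 at a low level (mean log2 CPM 1.26) but was lowest in E2 replicate 3 among E2 libraries. *Jun* did not step up in OVX replicate 2 (-0.02).

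**Figure D5:**
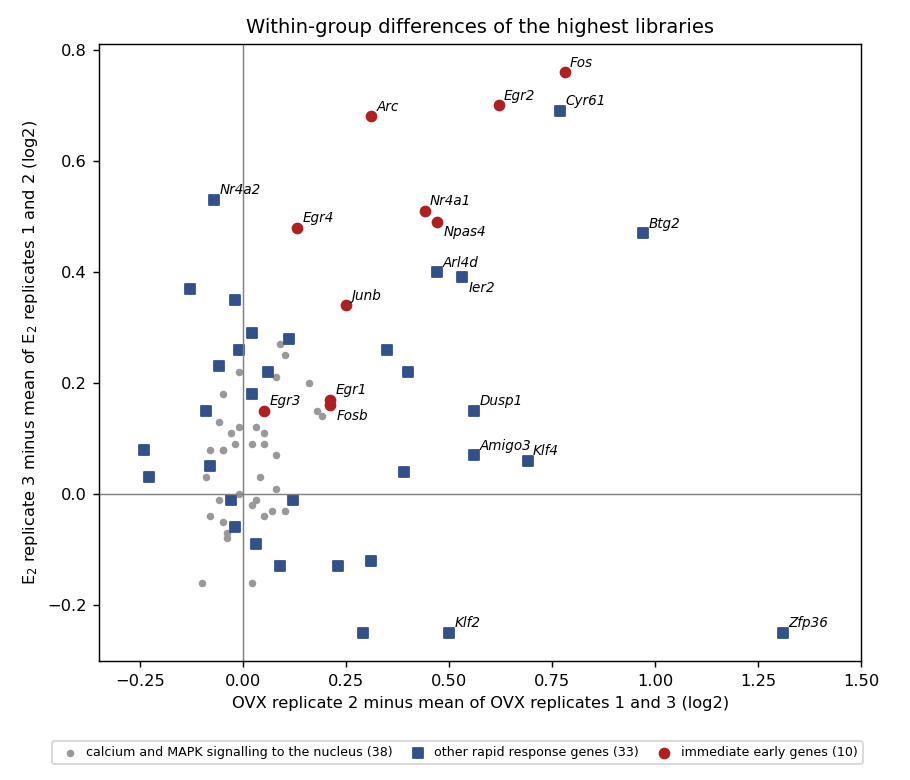
Log2 step of OVX replicate 2 over the mean of the other OVX libraries (horizontal) against that of E2 replicate 3 over the mean of the other E2 libraries (vertical), for the 10 immediate early genes (red), 33 other rapid response genes (blue squares) and 38 genes of calcium and MAPK signalling (grey). All 10 red points lie above 0 on both axes, which follows from singling out the libraries where these genes were highest. The grey points lie nearer the origin (medians 0.02 and 0.08), and *Zfp36* is at the far right at 1.31 with a negative vertical value.

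Activity-regulated genes of the second wave include secreted and synaptic proteins as well as nuclear and signalling ones, and 25 of 26 were measured (*Serpinb2* was not listed). None was called, 2 were higher and 4 (16.0%) lower at an unadjusted p under 0.05, where 4.21% of all genes were higher and 4.34% lower, and the median difference was 0.02. *Scg2*, a granin of secretory vesicles and the source of secretoneurin, came closest, with OVX values of 10.25, 10.25 and 10.50 log2 CPM and E2 values of 10.92, 10.98 and 10.57, which do not overlap. Its difference was 0.49 (SE 0.10, adjusted p = 0.0608 in limma), and it passed the threshold under several other settings. The authors, who used voom weights on the same libraries, list *Scg2* among the genes raised by E2. E2 replicate 3, where the immediate early genes were high, was the lowest E2 library for *Scg2*. The other abundant members were *Vgf*, a neuropeptide precursor (-0.01 ± 0.06, SE), and *Rgs4*, a G protein regulator (0.02 ± 0.06). Both libraries were the highest of their groups for 4 of 25 genes (16.0%).

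Of 15 partners and corepressors, 14 were measured and *Batf* was not listed. None was called and 2 (14.3%, against 4.34% of all genes) were lower at an unadjusted p under 0.05, with a median difference of -0.07. *Arnt2*, the neuronal partner of Npas4, differed by -0.10 ± 0.05 (SE), *Jund* by -0.08 ± 0.06 and *Atf2* by 0.00 ± 0.06, and *Jun*, which is in this list too, had its smallest p. Both libraries were the highest of their groups for 0 of the 14.

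All 38 genes of calcium and MAPK signalling to the nucleus, the pathway upstream of the immediate early genes, were measured. None was called, 10 were lower (26.3%, against 4.34% of all genes) and 0 higher at an unadjusted p under 0.05, and 28 had a negative difference, with a median of -0.06. *Camk2a*, a calcium-dependent kinase of excitatory synapses, differed by -0.18 ± 0.08 (SE), *Camk2b* by 0.03 ± 0.05, and *Ppp3ca*, the catalytic subunit of calcineurin, by -0.06 ± 0.05. The smallest p was that of *Mef2d*, an activity-dependent transcription factor (difference -0.18, SE 0.05, adjusted p = 0.281). Both libraries were the highest of their groups for 7 of the 38 (18.4%). The median steps were 0.02 and 0.08, where those of the 10 genes, for which the libraries were singled out, were 0.28 and 0.49. In 9 of the 38 all E2 libraries were below all OVX libraries, an arrangement of 6.82% of all genes.

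Outside the set, the genes whose log2 CPM over the 6 libraries was most like the average profile of the 10 were *Ank3* (r = 0.998), *Akap6* (0.997), *Adat2* (0.989), *Rasl10b* (0.987) and *Zbtb38* (0.987). *Ank3*, the scaffold ankyrin of the axon initial segment, was measured at 9.50, 9.72 and 9.37 in OVX and at 9.20, 9.22 and 9.62 in E2 libraries. Like *Fos*, it was highest in OVX replicate 2 and next in E2 replicate 3. Its steps were smaller than those of *Fos* but larger than those of *Egr1*, *Fosb* and *Egr3*. In all, 159 genes, 4 of them from the set, had an r of at least 0.9 with this profile. These correlations rest on 6 libraries with a shared pattern and are given with no p.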

How the data were processed

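RNA-seq was analysed from 3 OVX and 3 OVX+E2 MeA IP libraries, each from 1 pool of 4 mice, as labelled. The authors trimmed the 75-base reads with Trimmomatic 0.38, aligned them with STAR 2.6.0a (versions from the submitters' processing notes), quantified them with RSEM on GRCm38 with Ensembl 98, kept protein-coding genes whose average CPM in a group exceeded 1, and deposited TMM-scaled voom log2 CPM values. A deposited table of the authors' own comparison, with log2 fold changes, statistics and p-values, was not used.

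The log2 CPM were tested with limma 3.58.1 in R 4.3.3 with a mean-variance trend (prior degrees of freedom 9.55), treatment as the only term, 2-sided, with Benjamini-Hochberg adjustment over 13886 genes and a threshold of 0.05. The voom weights of the study need counts, so the trend stood in for them. Library sizes and reads were worked out from the lowest log2 CPM of each library, taken as 0 counts plus the 0.5 of voom. Reads carry no molecular identifiers. Log2 differences had a median SE of 0.107. On simulated data for this comparison over 13886 genes, 78 of 100 genes changed by 1 and 94 of 100 changed by 2 on the log2 scale were recovered, with 8 false calls. Changes as small as those of the 10 genes were not simulated. Noise was drawn separately for each gene, unlike the shared movement of the 10 genes. Positions and lengths came from GENCODE M21 (GRCm38).

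The 10 genes and the lists were chosen with earlier results of these data known. From each list, called genes were to be named, and otherwise the 3 with the highest mean and the gene with the smallest p, and, of all other genes, the 5 with the profile most like that of the set. Genes named outside this rule are said to be. 1 marker gene is not reported here and was left out of its sum. Alternatives were no trend, precision weights, other scalings, log2 of CPM plus a constant, a filter on low levels, a replicate block and each library left out, and, chosen after seeing the data, leaving out the highest library of each group.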

Additional observations from a re-analysis of the deposited data

How the results depend on the processing

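No immediate early gene passed the threshold under any of the 15 alternatives. The median of their differences kept its sign under all of them, and 8 of the 10 genes kept theirs. The exceptions were *Fos*, which ranged from -0.38 to 0.13 when 1 library was left out, and *Egr4*, from -0.25 to 0.06. Without E2 replicate 3, 5 of the 10 genes (*Fosb*, *Arc*, *Nr4a1*, *Egr3*, *Junb*) had E2 libraries that did not overlap OVX, as had 12.8% of all genes in that direction. The range was 0 to 5 over the left-out libraries, and it was 5 without the highest library of each group, as for 19.5% of all genes, an alternative chosen after seeing the data that removes the libraries where these genes were highest. The number of all genes called was 40, 0 without the trend (1017 at an unadjusted p under 0.05), 20 to 66 with 1 library left out (21 without OVX replicate 1, 26, 20 and 66 without E2 replicates 1, 2 and 3) and 80 without the highest library of each group. Among other rapid response genes and among partners, 0 to 1 were called with 1 library left out, which was *Jun* without E2 replicate 3 (-0.39, adjusted p = 0.0498 in limma). Among second-wave genes, 1 was called with precision weights, 1 with quantile normalization and 1 with a mean log2 CPM of at least 1, *Scg2* each time, 0 to 2 with 1 library left out and 2 (*Scg2* and *Nptx2*) without the highest library of each group. The adjusted p of *Scg2* ranged from 0.00458 to 0.582. The order of levels changed in 6 places with summed exon length. Replicate numbers were not taken to pair libraries, as deviations of libraries with the same number correlated at -0.0213, -0.121 and -0.083. With the replicate block 35 genes were called, 0 of them immediate early genes. The causes of these changes were not tested. Depth limits *Egr2* most, at 78 to 222 reads per library.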
